A study of Mus musculus with 6 samples.

Results

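The 10 genes described here encode enzymes of bile acid synthesis in mouse liver: Cyp7a1, Cyp8b1, Cyp27a1, Cyp7b1, Cyp2c70, Hsd3b7, Akr1d1, Amacr, Slc27a5 and Baat. They were taken by gene symbol from an expression array on which 18820 genes were tested, and all 10 were measured. Of several probe sets of 1 gene, the brightest by its mean on the 6 arrays was used. The enzymes were thus chosen by symbol and their probe sets by mean level, and the list was drawn up with the genotype differences of Cyp7a1, Cyp8b1 and Cyp2c70 already known. Livers came from 4 mice of the Pcyt2+/- genotype (replicates 1 to 4) and from 2 wild type mice (replicates 3 and 4), with 1 array per mouse. All were 2-month-old mice of the C57BL6 background, and the liver was frozen before RNA extraction. In their titles the Pcyt2+/- mice are knock-outs, whereas the genotype field gives the heterozygous state, which is used here. The sources used here give neither their sex nor the hour and feeding state when tissue was taken.

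Liver turns cholesterol into bile acids by 2 routes. In the classic route Cyp7a1 hydroxylates cholesterol first and sets the pace of the whole pathway. In the alternative (acidic) route Cyp27a1 oxidises the side chain first and Cyp7b1 then hydroxylates the ring. Hsd3b7 and Akr1d1 rearrange and reduce the ring in both routes, and Cyp8b1 adds the hydroxyl group that makes cholic acid instead of chenodeoxycholic acid. Amacr flips the side chain to the form that peroxisomes can shorten. Slc27a5 links bile acids to coenzyme A, and Baat joins them to taurine or glycine. Mice differ from humans in that Cyp2c70 converts chenodeoxycholic acid to muricholic acids.

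The values are log2 signals of the array, as the authors deposited them. Most genes lay in a narrow band at the low end, with array medians of 4.40, and 792 of the 18820 genes had a mean above 5. Of the 10 enzymes 7 had a mean above 5, while Cyp7a1, Akr1d1 and Baat lay below it, where differences on the log2 scale are compressed by the background. Some enzymes above 5 also had larger differences with each array's median subtracted on the linear scale. Cyp8b1 went from -0.76 to -1.55, Cyp2c70 from 1.05 to 1.25, Hsd3b7 from 0.20 to 0.34 and Amacr from 0.094 to 0.18. Cyp7b1 stayed at -0.15. In that setting the largest absolute difference of the enzymes was that of Cyp8b1, not of Cyp2c70. Signals of different probe sets are not compared with each other, and precision is limited by how few arrays there were. Nothing beyond the titles says that the mice were raised or handled separately, so that p-values measure the spread between these 6 arrays only. Pcyt2 itself had 4.64, 4.66, 4.67 and 4.60 on the Pcyt2+/- arrays, against 4.89 and 4.80 on the wild type arrays, and the groups did not overlap. The difference of -0.20 did not pass (limma, adjusted p = 0.264 over all genes), nor did that of -0.87 with each array's median subtracted on the linear scale (adjusted p = 0.0947). Whether the targeted allele removes what it reads is not known here.

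In whole liver RNA, fewer cells of a type and less RNA per cell cannot be told apart. All 8 measured hepatocyte markers had a mean above 5, with a summed linear signal of 12767 to 13809 in Pcyt2+/- and 13162 to 14259 in wild type. Their mean log2 value did not overlap, at 9.95 to 10.06 in Pcyt2+/- and 10.12 to 10.15 in wild type. In Pcyt2+/- 6 of the 8 had lower means, against 62.4% of genes with a mean above 5, and 0 passed. Groups did not overlap for 2 of the 8, against 12.8% of all genes and 20.8% of those with a mean above 5. These were the urea cycle enzyme Cps1 (-0.56, or -0.37 without wild type replicate 4) and the lipoprotein gene Apob (-0.17), both named after their values were seen. The part of these differences in the results for the enzymes was not tested. Of 56 measured markers of 8 other cell types (bile duct, macrophage, stellate, endothelial, lymphoid, erythroid, fat and pancreatic acinar cells), 1 had a mean above 5, the stellate cell and fibroblast gene Dcn. The summed linear signal of the 56 was 1243 to 1264 in Pcyt2+/- and 1250 to 1252 in wild type.

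Set against wild type liver, Pcyt2+/- liver showed no single direction across the pathway. The muricholic acid enzyme stood on one side: the array signal of Cyp2c70 had a mean 2.08-fold higher in Pcyt2+/-. The first enzyme of the classic route and the cholic acid enzyme stood on the other, with Cyp8b1 1.70-fold and Cyp7a1 1.23-fold higher in wild type. The remaining 7 enzymes differed by between -0.15 and 0.20 on the log2 scale. By limma 0 of the 10 passed at an adjusted p under 0.05 over all genes (adjusted p from 0.623 to 0.996), against 0% of all genes tested. At an unadjusted p under 0.05 there were 4 of the 10, against 5.3% of all genes and 20.2% of the genes with a mean above 5. Of the 4, Cyp7a1 and Cyp8b1 were lower, against 3.44% of all genes, and Cyp2c70 and Amacr higher, against 1.86%.

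A mean lower in Pcyt2+/- was seen for 7 of the 10 and a higher one for 3, against 51.9% and 48.1% of all genes. Of the genes with a mean above 5, 62.4% were lower, and of the 7 enzymes with such a mean 4 were lower and 3 higher. The median difference was -0.043, against -0.00073 over all genes and -0.020 over the 792 genes with a mean above 5. The ranges of both groups did not overlap for 3 of the 10, against 12.8% of all genes and 20.8% of those with a mean above 5. Of these 3, 2 were lower (Cyp7a1 and Cyp8b1, against 7.17% of all genes) and 1 was higher (Cyp2c70, against 5.67%). The same 3 were the enzymes with an absolute difference of at least 0.25, against 0.43% of all genes and 9.34% of those with a mean above 5, and 2 of them reached 0.5, against 0.133% of all genes. With 4 against 2 arrays an exact permutation test cannot go below p = 0.0667, so it could not pass for any gene. Since these differences were known when the enzymes were listed, the counts describe them and support nothing further.

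**Figure D1:**
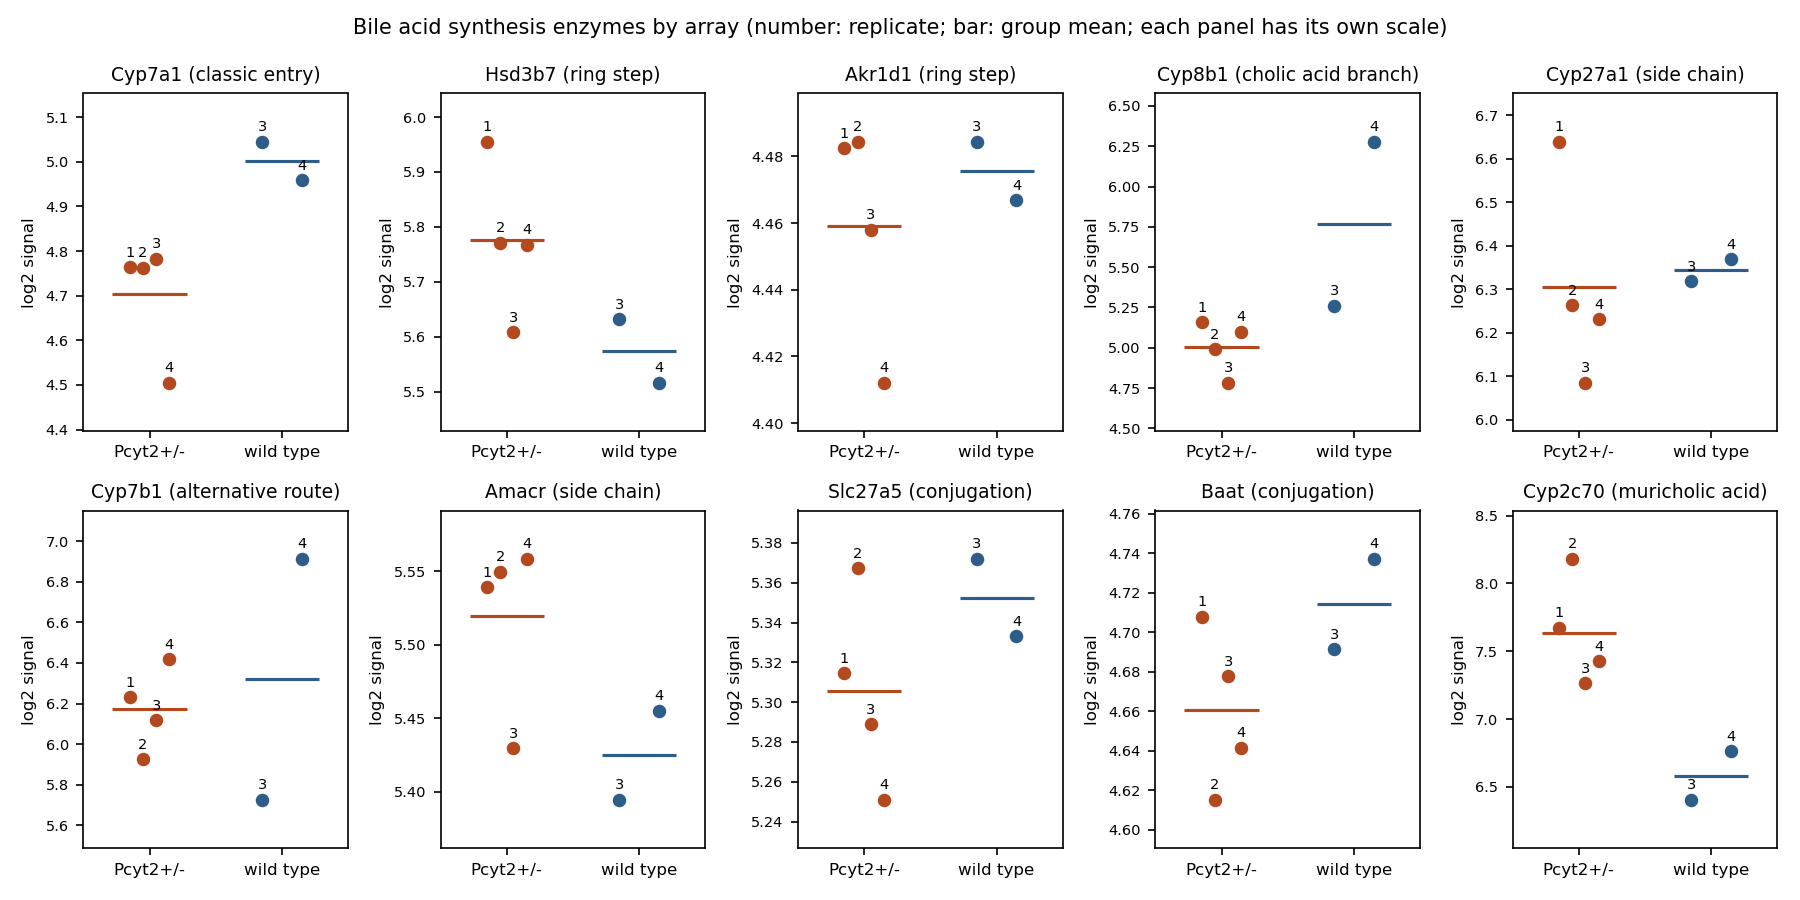
Log2 signal of the 10 enzymes on each array, 1 panel per gene with its own scale. Points are arrays with their replicate numbers, Pcyt2+/- (n = 4) on the left and wild type (n = 2) on the right of each panel, and bars are group means. The groups do not overlap for Cyp7a1, Cyp8b1 and Cyp2c70, and wild type replicate 4 is the highest array for Cyp8b1 and Cyp7b1.

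The probe sets of Cyp2c70 and Cyp8b1 had the biggest differences of the 10 in either direction, so the 250 bases before their annotated starts are shown here. Both sequences are from RefSeq on GRCm38.p6, are on the minus strand and are given 5′ to 3′. Cyp2c70 covers chr19:40187287-40187536 and Cyp8b1 covers chr9:121916306-121916555. Capitals mark CAAAGTCCA, a core recognised by HNF4A, a nuclear receptor of the liver.
Cyp2c70: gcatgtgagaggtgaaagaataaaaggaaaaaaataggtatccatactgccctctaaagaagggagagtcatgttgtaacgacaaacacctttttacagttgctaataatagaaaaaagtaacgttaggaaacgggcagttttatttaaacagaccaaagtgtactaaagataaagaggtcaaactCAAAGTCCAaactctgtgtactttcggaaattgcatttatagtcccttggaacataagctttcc
Cyp8b1: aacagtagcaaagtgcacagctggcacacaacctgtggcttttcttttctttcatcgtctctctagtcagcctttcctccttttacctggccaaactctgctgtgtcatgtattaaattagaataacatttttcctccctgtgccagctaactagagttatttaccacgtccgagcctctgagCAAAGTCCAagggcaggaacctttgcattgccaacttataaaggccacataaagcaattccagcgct

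The 9 letters begin 64 bases before the start in Cyp2c70 and 67 bases before it in Cyp8b1. No other motif was searched, and this one was chosen after both sequences had been read. Searched on both strands of 250 bases, it was present in 126 of 32851 promoters, or 0.384%, and in 7 of the 611 genes with a mean above 5 that had a promoter in the table, or 1.15%. Of those 7 genes, 4 had a lower and 3 a higher mean in Pcyt2+/-. Cyp8b1 and Cyp2c70, whose sequences led to this choice of motif, are themselves included in the 126 promoters and the 7 genes. Cyp8b1 is among the 4 and Cyp2c70 among the 3. Promoters were at hand for 5 of the 10 enzymes, and the letters were not in the windows of Hsd3b7, Akr1d1 and Cyp27a1. Hnf4a itself had 7.49, 7.27, 7.33 and 7.36 in Pcyt2+/- and 7.32 and 7.90 in wild type. Its difference was -0.25, did not pass (adjusted p = 0.952) and was 0.038 without wild type replicate 4.

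At the entry of the classic route, Cyp7a1 had log2 values of 4.76, 4.76, 4.78 and 4.50 in Pcyt2+/- livers 1 to 4, against 5.04 and 4.96 in wild type livers 3 and 4. Every Pcyt2+/- array lay below both wild type arrays, and Pcyt2+/- replicate 4 lay well below the other 3. The means were 4.70 ± 0.13 (SD, n = 4) in Pcyt2+/- and 5.001 ± 0.061 (SD, n = 2) in wild type. The difference was -0.30 (SE 0.079, 95% interval -0.49 to -0.11), and it did not pass (limma, adjusted p = 0.714 over all genes). Leaving out 1 array at a time, it ran from -0.34 to -0.23. With each array's median subtracted on the linear scale the difference was -0.98, a setting in which Pcyt2+/- replicate 4 lay at the lowest value allowed.

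The cholic acid enzyme Cyp8b1 had 5.16, 4.99, 4.78 and 5.10 in Pcyt2+/-, against 5.26 and 6.28 in wild type. The Pcyt2+/- arrays lay close together below both wild type arrays, but wild type replicate 3 was just above the highest of them and wild type replicate 4 far above. The means were 5.01 ± 0.16 (SD, n = 4) in Pcyt2+/- and 5.77 ± 0.72 (SD, n = 2) in wild type. The difference was -0.76 (SE 0.26, 95% interval -1.37 to -0.15), and it did not pass (adjusted p = 0.869). It was -0.25 without wild type replicate 4 and -1.27 without wild type replicate 3, so its size depended on which wild type mouse was used. With the array medians subtracted on the linear scale it was -1.55.

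For the muricholic acid step, Cyp2c70 had 7.67, 8.18, 7.26 and 7.43 in Pcyt2+/-, against 6.41 and 6.76 in wild type. All 4 Pcyt2+/- arrays lay above both wild type arrays. The means were 7.64 ± 0.40 (SD, n = 4) in Pcyt2+/- and 6.58 ± 0.25 (SD, n = 2) in wild type. The difference was 1.05 (SE 0.24, 95% interval 0.47 to 1.64.) It did not pass (limma, adjusted p = 0.623 over all genes) and was the 6th in absolute size among the 18820 genes. It ran from 0.87 to 1.23 with 1 array left out, and it was 1.25 with the array medians subtracted on the linear scale. With only the 792 genes of a mean above 5 tested, the adjusted p of Cyp2c70 by limma was 0.225.

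Cyp2c70 belongs to a family of closely related P450 genes, of which 12 others were measured. Of these 12, 9 had a lower and 3 a higher mean in Pcyt2+/-, against 51.9% lower among all genes and 62.4% among those with a mean above 5, and 0 passed the test. The differences ran from -0.62 (Cyp2c39) to 0.31 (Cyp2c23), several lay near 0, and Cyp2c29 (0.24) was higher along with Cyp2c23. The groups overlapped for Cyp2c23 (8.04 to 8.31 in Pcyt2+/-, against 8.14 and 7.62 in wild type). They did not for Cyp2c29 and Cyp2c39. This family was taken by symbol after the values were seen. How far the probes of 1 Cyp2c gene read another was not tested.

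**Figure D2:**
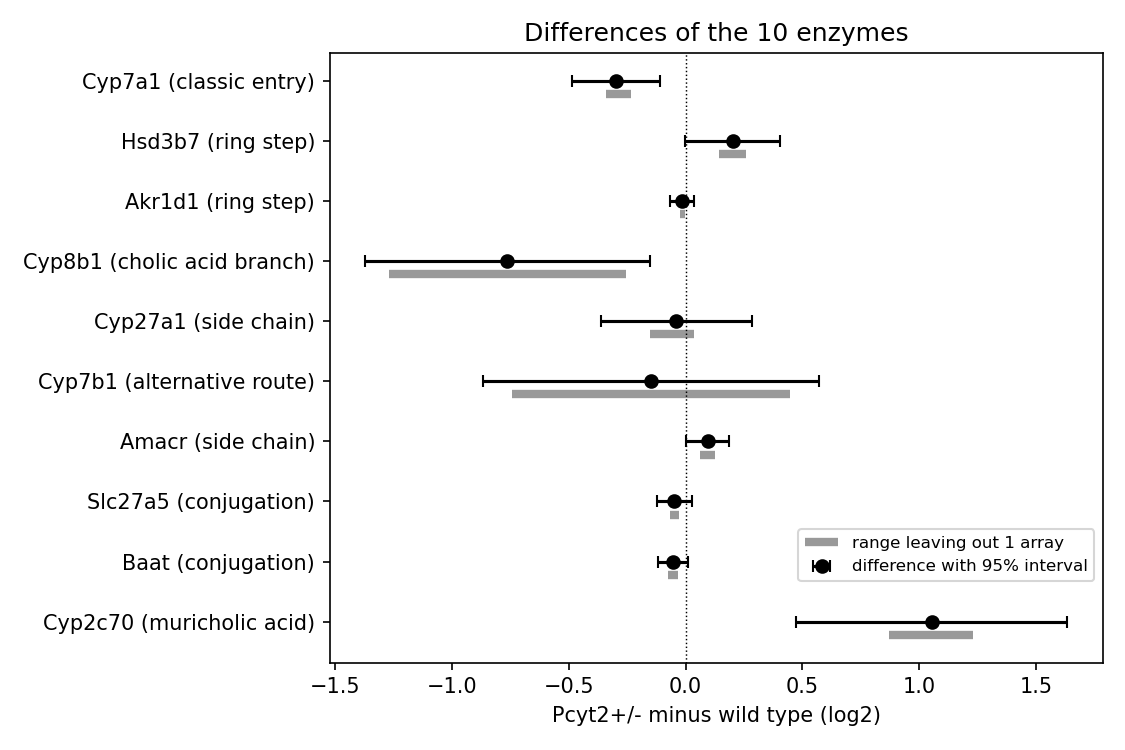
Difference of each enzyme, Pcyt2+/- (n = 4) minus wild type (n = 2), on the log2 scale. Points and whiskers are limma's difference and 95% interval, and grey bars span the differences when 1 array is left out. Cyp2c70 lies at 1.05 and Cyp8b1 at -0.76. The grey bar of Cyp7b1 crosses 0, from -0.74 to 0.45.

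The ring enzymes of both routes did not pass the test. Hsd3b7, the ring dehydrogenase, had 5.96, 5.77, 5.61 and 5.77 in Pcyt2+/-, against 5.63 and 5.52 in wild type. Of the Pcyt2+/- arrays 3 lay above both wild type arrays and replicate 3 lay between them. The difference was 0.20 (SE 0.086, 95% interval -0.0035 to 0.41) (adjusted p = 0.936). A second, dimmer probe set of Hsd3b7 did not show this, at 4.57, 4.56, 4.46 and 4.58 in Pcyt2+/- and 4.58 and 4.50 in wild type, a difference of 0.0063. The mean over both probe sets differed by 0.10.

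Akr1d1, the ring reductase, had 4.48, 4.48, 4.46 and 4.41 in Pcyt2+/-, against 4.48 and 4.47 in wild type. The groups overlapped and all values lay close to the array medians. The difference was -0.016 with a 95% interval of -0.068 to 0.035 (adjusted p = 0.986), and -0.00065 without Pcyt2+/- replicate 4.

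Of the alternative route and the side chain enzymes, Cyp27a1 had 6.64, 6.26, 6.08 and 6.23 in Pcyt2+/-, against 6.32 and 6.37 in wild type. The Pcyt2+/- arrays spread on both sides of the wild type arrays. The difference was -0.039 with a 95% interval of -0.36 to 0.29 (adjusted p = 0.996), and its sign turned without Pcyt2+/- replicate 3 (0.034).

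Cyp7b1, the ring hydroxylase of the alternative route, had 6.23, 5.92, 6.12 and 6.42 in Pcyt2+/-, against 5.73 and 6.91 in wild type. Both wild type arrays lay outside the Pcyt2+/- range, one below it and one above. The means were 6.17 ± 0.21 (SD, n = 4) in Pcyt2+/- and 6.32 ± 0.84 (SD, n = 2) in wild type. The difference of -0.15 had a 95% interval of -0.87 to 0.57 (adjusted p = 0.996). It was -0.74 without wild type replicate 3 and 0.45 without wild type replicate 4, so these arrays do not give it a direction.

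Amacr, the racemase of the side chain, had 5.54, 5.55, 5.43 and 5.56 in Pcyt2+/-, against 5.39 and 5.46 in wild type. Pcyt2+/- replicate 3 lay between the wild type arrays and the other 3 lay above them. The difference was 0.094 with a 95% interval of 0.0031 to 0.19 (adjusted p = 0.932).

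Both conjugating enzymes had slightly lower means in Pcyt2+/- that did not pass. Slc27a5, the bile acid coenzyme A ligase, had 5.31, 5.37, 5.29 and 5.25 in Pcyt2+/-, against 5.37 and 5.33 in wild type. Its difference was -0.047 with a 95% interval of -0.12 to 0.026 (adjusted p = 0.956), and -0.028 without wild type replicate 3. Baat, the amino acid transferase, had 4.71, 4.62, 4.68 and 4.64 in Pcyt2+/-, against 4.69 and 4.74 in wild type. Its difference was -0.054 with a 95% interval of -0.12 to 0.011 (adjusted p = 0.945), and -0.031 without wild type replicate 4. For both genes the groups overlapped, and the intervals bound a difference on this compressed scale only.

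Some of the enzymes varied widely between mice of 1 genotype and others did not. Between both wild type arrays Cyp7b1 differed by 1.19 and Cyp8b1 by 1.02, each higher in replicate 4. These 2 were the only genes of all 18820 with a gap of at least 1 there (a limit chosen after the values were seen), and Ugt2b1, a glucuronosyltransferase, came next with 0.98. The median gap of the genes with a mean above 5 was 0.074, and the other 8 enzymes had gaps of 0.018 (Akr1d1) to 0.36 (Cyp2c70).

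Among the Pcyt2+/- mice Cyp2c70 had the widest range of the 10 enzymes, 0.92, which exceeded that of 98.9% of genes with a mean above 5 or equalled it. The ranges were 0.55 for Cyp27a1, 0.49 for Cyp7b1 and 0.37 for Cyp8b1. Akr1d1, Baat, Slc27a5 and Amacr ranged by 0.072 to 0.13. Pcyt2+/- replicate 3 was the lowest of its group for 5 of the 10 enzymes and replicate 1 the highest for 4.

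**Figure D3:**
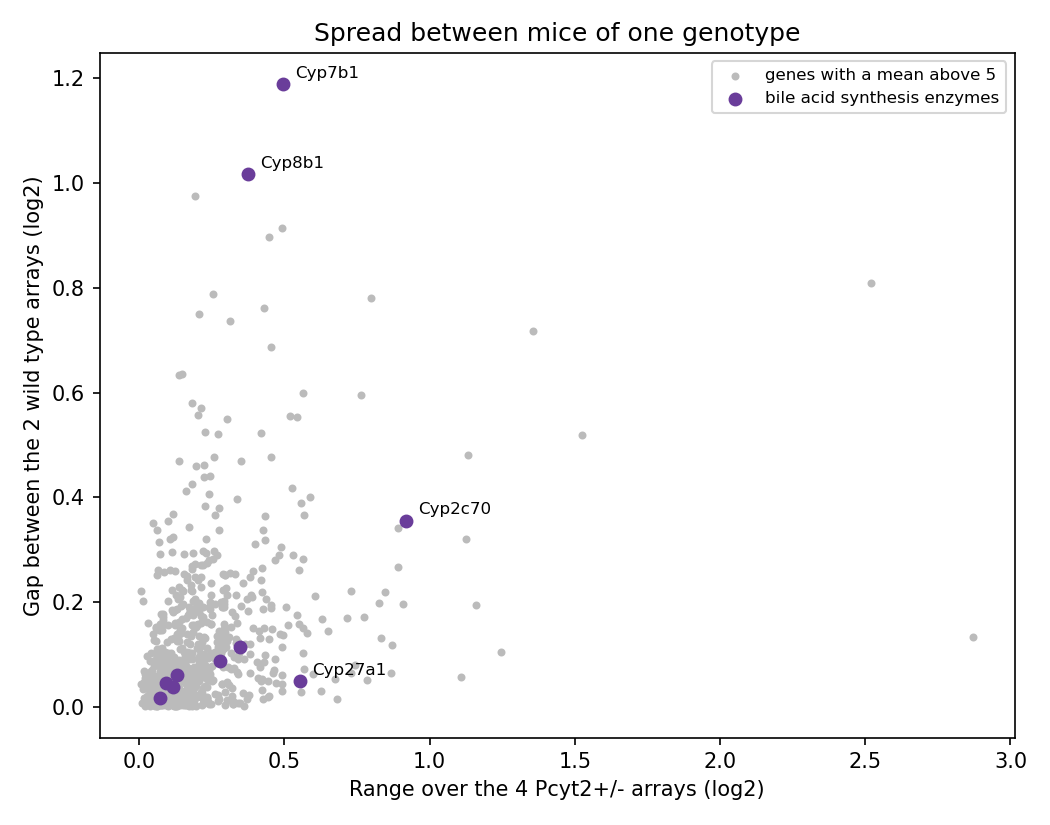
Spread between mice of the same genotype for the 792 genes with a mean above 5 (grey) and the 10 enzymes (purple). The horizontal axis is the range over the 4 Pcyt2+/- arrays and the vertical axis is the gap between the 2 wild type arrays, both on the log2 scale. Cyp7b1 (gap 1.19) and Cyp8b1 (gap 1.02) lie above every grey point, and the 6 purple points without a name are close to the bulk.

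For each enzyme that spanned at least 0.5 over the 6 arrays, the genes with the nearest array-by-array profile were taken by the mean absolute difference of values centred on each gene's mean. Those nearest to Cyp7a1 were Decr2, a peroxisomal dienoyl-CoA reductase (0.047), Gnmt, the glycine methyltransferase (0.050), and Slc37a4, the glucose-6-phosphate transporter (0.063). Nearest to Cyp8b1 were Tdo2, which opens tryptophan breakdown (0.10), Retsat, a retinol saturase (0.14), and Hspa8, a constitutive chaperone (0.16). Cyp7b1 lay nearest to Elovl3, a fatty acid elongase (0.13), C6, a complement component (0.16), and Insig2, a sterol sensor of the endoplasmic reticulum (0.18).

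Cyp27a1 lay nearest to Hal, which breaks down histidine (0.058), Pcbd1, which recycles the cofactor of phenylalanine hydroxylase (0.059), and Bhmt2, a methyltransferase that makes methionine (0.060). Nearest to Cyp2c70 were the carboxylesterase Ces3b (0.26), Ugt2b1 (0.31) and Selenbp2, a selenium-binding protein (0.31). The distances are larger here, but this measure grows with the span, which was 1.78 for Cyp2c70 and 0.55 for Cyp27a1. With 6 arrays the nearest profiles are descriptions of the arrays.

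Other genes of bile acid synthesis were taken as a list of 22, of which 19 were measured and 7 had a mean above 5. Of the 19, 13 had lower and 6 higher means in Pcyt2+/-. Among all genes 51.9% were lower, and 62.4% of those with a mean above 5. The median was -0.061, and 0 passed by limma. An unadjusted p under 0.05 was seen for 5 lower and 0 higher ones (against 3.44% and 1.86% of all genes). In either direction this share was 20.2% of the genes with a mean above 5. Abcd3, the peroxisomal transporter that takes up bile acid intermediates, had 4.78, 4.73, 4.78 and 4.76 in Pcyt2+/-, against 4.98 and 4.89 in wild type. Its groups did not overlap, and its difference of -0.17 did not pass (adjusted p = 0.311).

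Cyp39a1, an oxysterol hydroxylase, differed by -0.097 (adjusted p = 0.593), and by -0.064 without wild type replicate 4. Acaa1b, a peroxisomal thiolase, differed by -0.16 (-0.097 without wild type replicate 3), and Rdh16, a retinol and hydroxysteroid dehydrogenase, by -0.13 (-0.060 without wild type replicate 3). The highest difference of this list, 0.32, belonged to Akr1c6, a hydroxysteroid dehydrogenase, whose groups overlapped. Akr1c6 is named here because its value stood out.

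Of the regulators, 4 of 22 measured had a mean above 5 (Hnf4a, Insig2, Ces1d and Ppara) and the differences ran from -0.28 (Lpin1) to 0.18 (Onecut1). Of the 22, 17 had lower and 5 higher means, against 51.9% lower among all genes and 62.4% among those with a mean above 5. The median was -0.028, and 0 passed. An unadjusted p under 0.05 was found for 2 with lower and 2 with higher means (3.44% and 1.86% of all genes). Nr1h4 (FXR), the bile acid receptor, differed by -0.030 (-0.010 without wild type replicate 3), and Nr0b2 (SHP), the repressor it induces, by -0.069 (0.0029 without wild type replicate 3). Fgfr4 and Klb, the receptor pair for the intestinal signal that represses Cyp7a1, differed by 0.0039 and -0.020 (without wild type replicate 4, -0.0093 and -0.011). Nr5a2 (LRH-1), an activator of Cyp7a1 and Cyp8b1, differed by -0.026, and Nr1h3 (LXR alpha), which raises Cyp7a1 in mice, by -0.014 (without wild type replicate 3, -0.012 and 0.00049). All 6 had means below 5.

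Of the regulators with the smallest unadjusted p, Onecut1 (HNF6), a liver transcription factor, had 4.89, 4.96, 4.83 and 4.995 in Pcyt2+/-, against 4.73 and 4.74 in wild type. Its groups did not overlap and its difference of 0.18 did not pass (adjusted p = 0.662). Ppargc1a, a coactivator of fasting genes, differed by -0.033 and Foxo1, a factor restrained by insulin, by 0.034. Ces1d, a carboxylesterase in this list that is no transcription factor, differed by -0.19 (adjusted p = 0.321). Lpin1, a phosphatidate phosphatase and coactivator, differed by -0.28, and by -0.011 without wild type replicate 4. Lpin1 was named after its value was seen.

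Transporters of bile acids were mixed. Of 14 measured, 9 had lower and 5 higher means, against 51.9% lower among all genes and 62.4% among those with a mean above 5. The median was -0.042, and 0 passed. An unadjusted p under 0.05 was seen for 3 with lower and 2 with higher means (3.44% and 1.86% of all genes). In either direction this share was 20.2% of the genes with a mean above 5. Slc10a1, which imports bile acids from blood, differed by -0.22 (-0.12 without wild type replicate 3), Abcb11, which exports them into bile, by 0.087, Abcg8, of the sterol exporter, by 0.053, and Abcc2, which exports conjugates, by -0.091 (-0.029 without wild type replicate 3). Among enzymes that detoxify bile acids, 5 of 9 measured had lower and 4 higher means, against 51.9% lower among all genes. Their median was -0.0020, and 0 passed. Cyp3a13 and Cyp3a25, both P450 enzymes of the Cyp3a family, differed by -0.12 (-0.056 without wild type replicate 4) and -0.41 (-0.21 without wild type replicate 3).

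**Figure D4:**
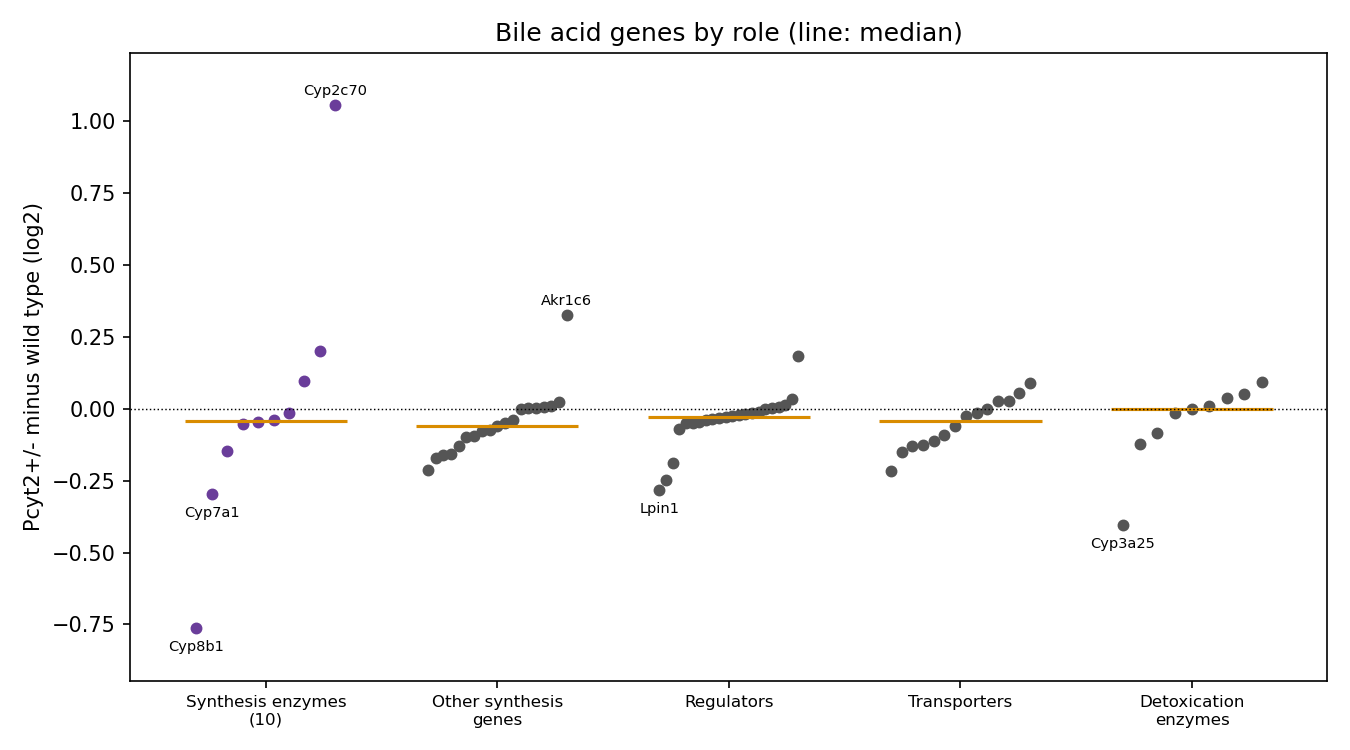
Differences on the log2 scale (Pcyt2+/- minus wild type) for the 10 enzymes (purple) and for 4 lists of related genes (grey), each point 1 gene and each orange line the list's median. Genes at an absolute difference of at least 0.25 are named. The medians are -0.043, -0.061, -0.028, -0.042 and -0.0020 from left to right, and Cyp2c70 and Cyp8b1 lie farthest from 0.

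Several states of the liver that are known to move Cyp7a1, Cyp8b1 or Cyp7b1 were read from lists on the same arrays, and their part in these results was not tested. Genes of the fasting response leaned one way. Of 15 measured, 14 had lower means in Pcyt2+/-, against 51.9% of all genes and 62.4% of those with a mean above 5. The median was -0.077, and 0 passed. Their summed linear signal was 883 to 1078 in Pcyt2+/- and 1800 to 1877 in wild type, a gap that lay mostly in 3 genes. Without Cyp4a14, Tat and Pck1 the sum of the other 12 was 430 to 525 in Pcyt2+/- and 526 to 604 in wild type. Cyp4a14, a fatty acid omega-hydroxylase, differed by -2.56, and Tat, which starts tyrosine breakdown, by -1.13. Pck1, a gluconeogenesis enzyme named after its value was seen, differed by -0.72, and by -0.50 without Pcyt2+/- replicate 1. Cpt1a, the gate of mitochondrial fatty acid import, differed by -0.20. Klf15, a factor of amino acid breakdown, differed by -0.077 (-0.049 without wild type replicate 4). Of 12 measured genes of the fed state, 9 had lower and 3 higher means, against the same 51.9% and 62.4% lower. Their median was -0.021, and 0 passed. Those with the smallest unadjusted p were Fasn (-0.075), Mlxipl (0.094), Me1 (-0.039) and Scd1 (-0.46). Of these only Scd1 had groups that overlapped, at 7.43 to 7.95 in Pcyt2+/- and 8.49 and 7.94 in wild type.

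Clock and output genes were dim, and 0 of 15 had a mean above 5. Of these, 10 had lower and 5 higher means, against 51.9% lower among all genes. Their median was -0.013, 0 passed, and Arntl (Bmal1), a core clock activator, differed by 0.030. Of 13 measured acute phase genes 4 had lower and 9 higher means (median 0.014, 0 passed), against 48.1% higher among all genes. Itih4, a secreted inhibitor chain, differed by 0.25 (0.16 without wild type replicate 4).

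In mice Cyp7b1 is known to be higher in male than in female liver, so genes of sex were read too. Xist, Kdm5d, Eif2s3y and Uty had 4.18 to 4.39 on the Pcyt2+/- arrays and 4.18 to 4.36 on the wild type arrays. All lie below the array medians, so these probe sets do not tell the sexes apart. Of 10 measured genes known to be higher in male liver, 9 had a mean above 5, and of 8 known to be higher in female liver, 0 did. The male list averaged 6.72 to 7.02 over the Pcyt2+/- arrays and 6.73 to 7.11 over the wild type arrays, and the female list 4.26 to 4.28 in both groups. Between genotypes 5 of the 10 male genes had lower means (median -0.00037) and 3 of the 8 female genes (median 0.0015), against 51.9% of all genes. In both lists 0 passed.

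Of the male list, C8a, a complement component, differed by 0.066, Hsd3b5, a hydroxysteroid dehydrogenase, by 0.18 (0.11 without wild type replicate 3) and Nudt7, a peroxisomal coenzyme A hydrolase, by 0.32 (0.046 without wild type replicate 3). Elovl3, of the same list and nearest to Cyp7b1 in profile, had 5.25, 4.80, 4.82 and 5.16 in Pcyt2+/-, against 4.92 and 5.81 in wild type. Like Cyp7b1 it was highest in wild type replicate 4. Its difference of -0.36 turned to 0.088 without that array.

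Position in the lobule was read from hepatocyte zone markers, since several bile acid enzymes are known to be stronger near the central vein. Of 12 measured pericentral markers 9 had lower and 3 higher means (median -0.036). Of 9 periportal markers 5 had lower and 4 higher means (median -0.054), and 0 passed in either list. Among all genes 51.9% were lower, and 62.4% of those with a mean above 5. The pericentral list holds Cyp27a1 (-0.039), one of the 10 enzymes, so it is not independent of them. Oat, an aminotransferase of pericentral cells, differed by -0.36 and Arg1, the last enzyme of the urea cycle and a periportal gene, by -0.79 (adjusted p = 0.13). Cyp1a2, another pericentral gene, differed by 0.20 and Cyp2f2, another periportal gene, by 0.21, both with groups that overlapped. The summed linear signal of the pericentral list was 2556 to 2897 in Pcyt2+/- and 2730 to 3022 in wild type, and that of the periportal list 1401 to 1682 in Pcyt2+/- and 1496 to 1616 in wild type. The mean log2 value of the pericentral list was 5.79 to 5.92 in Pcyt2+/- and 5.85 to 5.91 in wild type. That of the periportal list did not overlap, at 5.70 to 5.79 in Pcyt2+/- and 5.88 to 5.94 in wild type. This gap lay mostly in Arg1 (-0.79) and Pck1 (-0.72), and Pck1 is also in the fasting list. The groups did not overlap for 3 of the 9 periportal and 2 of the 12 pericentral genes. This was so for 12.8% of all genes and 20.8% of those with a mean above 5. All 3 periportal genes (Arg1, Pck1 and Hsd17b13) and the 2 pericentral genes (Oat and Slc1a2) were lower in Pcyt2+/-, against 7.17% of all genes.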

How the data were processed

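Total RNA of mouse liver was measured on Affymetrix arrays. The authors deposited 1 log2 value for each probe set and array. RMA is the tool that the submitters' processing notes name, without a version or a genome build. The table held 28996 probe sets, of which 21218 had 1 gene symbol in the platform annotation, 1881 several and 5897 none. The first kind gave the 18820 genes. RefSeq (GRCm38.p6) was used for symbols and promoters. Differences are Pcyt2+/- minus wild type, tested in R 4.3.3 by lmFit and eBayes of limma 3.58.1 (two-sided, no covariates, 6 arrays), with Benjamini-Hochberg adjustment over all genes and a threshold of 0.05. The steps were tested on simulated data. Figures and promoter searches used Python 3.11.15.

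The 10 enzymes and all lists (269 genes, 230 measured) were chosen with earlier results of these data known. Named genes are the 10 enzymes, Pcyt2, 7 fixed regulators, the sex chromosome genes, the nearest profiles and up to 4 genes per list by unadjusted p. Other settings were a dim gene filter, every row, the mean of rows, quantile normalization, median centring, array medians subtracted on the linear scale (lowest value 4 linear units), a trended and robust prior, array weights, a replicate block and each array left out.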

Additional observations from a re-analysis of the deposited data

Results flagged for a closer look

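In the Pcyt2+/- group of 4 arrays, 4 of the 65 named genes had 1 array far from the other 3 by Dixon's criterion, where chance gives about 1 in 20. Cyp7a1 had 4.50 on Pcyt2+/- replicate 4, against 4.76 to 4.78 on the other 3 arrays of that genotype. Amacr had 5.43 on Pcyt2+/- replicate 3, against 5.54 to 5.56 on the others. Hsd3b5 had 5.28 on Pcyt2+/- replicate 1, against 5.11 to 5.13, and Klf15 had 4.89 on Pcyt2+/- replicate 4, against 4.86 on each of the others. The array of Cyp7a1 lay farther from wild type than the rest of its group, and the array of Amacr lay nearer to it.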

How the results depend on the processing

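None of the 10 enzymes passed limma under any setting run, and the lowest adjusted p of any was 0.0945, for Cyp8b1 without wild type replicate 3. Over all genes 0 passed as reported, against 3 with the dim gene filter, 1 with array medians subtracted, 9 with a trended and robust prior, 2 with the replicate block, and 0 to 9 with 1 array left out; the cause was not tested. With the dim gene filter 4 enzymes had a lower mean, since 3 of the 10 were not tested there. Leaving out 1 array, the difference of Cyp27a1 ran from -0.15 to 0.034 and that of Cyp7b1 from -0.74 to 0.45, and the other 8 kept their sign under every setting in which they had a value. For 6 of the 10 some array left out made the difference more than 1.5 times smaller or turned it. With 1 wild type array left out, the lone one is assumed to vary like the Pcyt2+/- arrays. With array medians subtracted Akr1d1 lay at the lowest value on every array and was not tested. Groups shared the replicate numbers 3 and 4, whose deviations from the group means correlated at 0.15 and 0.072 across genes, and 2 pairs do not settle a pairing. The replicate block leaves 1 residual degree of freedom, so calls under it say little; there Cyp27a1 was -0.19, Slc27a5 -0.083, Hsd3b7 0.11, Cyp7b1 -0.052, Akr1d1 -0.041 and Cyp2c70 0.76, and no call among the enzymes changed. Signal near the background limits what can be read for Cyp7a1, Akr1d1 and Baat. It also limits Cyp8b1, whose Pcyt2+/- arrays had 4.78 to 5.16.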

Other observations

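Wild type replicate 4 stood out for several genes that the lists hold. Lpin1 had 5.02 there, against 4.48 on wild type replicate 3 and 4.44 to 4.49 on the Pcyt2+/- arrays. Insig2 had 6.14 there and 5.501 on wild type replicate 3, with all 4 Pcyt2+/- arrays between them at 5.68 to 5.82, the same order as for Cyp7b1. These genes were picked after their values were seen.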
